A study of Mus musculus with 15 samples.

Results

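The 7 genes described here encode enzymes of the route from acetyl-CoA to cholesterol: Hmgcs1, Idi1, Fdps, Fdft1, Sqle, Lss and Cyp51. They were taken by symbol from gene-level RNA-sequencing counts of mouse cerebellum, 7 of the 24421 genes in the tables. All 7 had enough counts to be tested, as did 15843 genes in all. There were 3 genotypes on the FVB strain, and 5 libraries of each. ATXN1[82Q] mice (Pcp2-ATXN1[82Q]) express human ATXN1 with 82 glutamines, an expansion of the kind that causes spinocerebellar ataxia, from the Purkinje cell promoter Pcp2. ATXN1[82Q]V591A;S602D mice carry the same promoter and glutamine tract with the substitutions V591A and S602D in ATXN1, in the region that binds the transcriptional repressor CIC. Wild-type FVB mice carry no transgene. Age and sex are not in the labels. Nor do they say that the libraries are different animals, and the spread that p-values rest on may therefore be technical in part. The level of the human transgenes was not measured.

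Cholesterol is made by a chain of enzymes in the cytosol and the endoplasmic reticulum. Early enzymes build mevalonate and then isoprenoid units, which are joined into squalene, closed into lanosterol and trimmed to cholesterol. In the brain, which takes up almost no cholesterol from blood, oligodendrocytes make it for myelin and astrocytes supply it to neurons. When sterols in the endoplasmic reticulum are low, the transcription factor encoded by Srebf2 enters the nucleus, binds sterol regulatory elements beside NF-Y, which binds CCAAT boxes, and raises transcription of nearly every gene of the chain.

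The promoters of Idi1 and Cyp51, the enzymes that were lower in ATXN1[82Q] cerebella, are shown with that of Hmgcs1, which holds the sterol regulatory element. They are RefSeq sequences of GRCm38.p6, from 250 bases before to 50 after the annotated start, read 5′ to 3′ on the gene's strand. Capitals mark CCAAT boxes (CCAAT, or ATTGG on the other strand), the sterol regulatory element core TCACCCCAC, and the looser form TCACNNCA, which overlaps that core.
Idi1 (chr13:8885356-8885655, plus strand): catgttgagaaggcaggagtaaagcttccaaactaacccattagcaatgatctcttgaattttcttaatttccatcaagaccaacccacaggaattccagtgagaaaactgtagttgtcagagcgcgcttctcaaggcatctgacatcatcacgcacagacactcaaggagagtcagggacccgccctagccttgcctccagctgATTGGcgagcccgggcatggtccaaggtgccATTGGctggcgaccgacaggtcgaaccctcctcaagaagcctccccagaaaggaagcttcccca
Cyp51 (chr5:4104648-4104947, minus strand): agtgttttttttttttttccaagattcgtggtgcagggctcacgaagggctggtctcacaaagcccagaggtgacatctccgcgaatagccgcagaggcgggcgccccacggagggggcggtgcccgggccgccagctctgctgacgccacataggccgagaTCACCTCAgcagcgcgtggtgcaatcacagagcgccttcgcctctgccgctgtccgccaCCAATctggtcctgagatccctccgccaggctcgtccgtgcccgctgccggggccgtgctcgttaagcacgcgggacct
Hmgcs1 (chr13:119690101-119690400, plus strand): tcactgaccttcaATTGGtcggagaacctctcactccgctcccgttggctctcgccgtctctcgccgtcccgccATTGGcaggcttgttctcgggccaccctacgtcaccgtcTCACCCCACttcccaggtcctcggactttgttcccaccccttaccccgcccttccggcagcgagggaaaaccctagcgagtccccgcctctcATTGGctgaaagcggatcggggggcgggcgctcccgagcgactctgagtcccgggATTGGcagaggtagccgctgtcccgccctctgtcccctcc

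The core TCACCCCAC, searched on both strands, was found in Hmgcs1 at position -137 from the start and in 0.551% of 32851 mouse promoters of the same length. TCACNNCA was found in Hmgcs1 and, at position -88, in Cyp51, and in 13.8% of all promoters. Idi1 and Lss held neither, and CCAAT boxes were found in all 4 of the enzymes whose promoters were matched (Hmgcs1, Idi1, Lss and Cyp51), against 37.4% of all promoters. Over the whole pathway CCAAT boxes were found for 15 of 16 genes with a promoter sequence. Here a gene counted if any of its promoters matched, and Pmvk and Dhcr7 had several, whereas the 37.4% is a share of promoters. For CIC only the octamer TGAATGAA was searched, and it was found in 0 of the 4 promoters and in 1.3% of all promoters. A match is a description of letters in this window and not a binding site. Promoters of Fdps, Fdft1 and Sqle are not shown.

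Libraries held 36467948 to 42818401 reads on genes. All 12 Purkinje cell and all 10 granule cell markers passed the count filter in this tissue. Summed Purkinje markers ran from 3890 to 4670 CPM (the count of a gene relative to the scaled total of its library) in ATXN1[82Q] cerebella, from 6800 to 9200 CPM in ATXN1[82Q]V591A;S602D and from 9590 to 10800 CPM in wild type. Ttr, by which choroid plexus at the border of the cerebellum is recognised, was under 100 CPM in 2 ATXN1[82Q], 2 ATXN1[82Q]V591A;S602D and 3 wild-type libraries, and above 1000 CPM in the others. Xist, the transcript of the inactive X, was above 1000 CPM in 2 of 5 libraries per genotype and at most 0.878 CPM in the others. The libraries of a genotype therefore did not all come from the same animals. Whether libraries alike in Xist did is not known. Replicate 5 of ATXN1[82Q] stood apart for these enzymes, being the highest of its genotype in all 7, and results that rest on it are given with and without it.

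Per kilobase of annotated exon, the only scale on which genes are compared here, the enzymes kept a steep order. The order depends on the length used, that of all annotated exons merged: 10.8 kb for Lss and 3.5 to 5.55 kb for the others. The length of the transcripts present was not measured. Idi1, Fdps and Fdft1 also share 25.3% to 26.5% of their 50-base stretches with other transcripts, so their place in the order is uncertain. In ATXN1[82Q] cerebella Hmgcs1 had 31.0 ± 3.94 CPM per kb, Cyp51 12.7 ± 1.04, Fdft1 10.1 ± 1.73, Fdps 6.76 ± 0.59, Sqle 6.13 ± 0.859, Lss 4.08 ± 0.207 and Idi1 3.05 ± 0.477 (mean ± SD, n = 5). In wild type the same order held, with 34.7 ± 3.09 CPM per kb for Hmgcs1 at the top, 4.15 ± 0.337 for Lss and 4.03 ± 0.331 for Idi1 at the bottom. Libraries of Fdps and Sqle, neighbours in the order, overlapped in all 3 genotypes. Idi1 and Lss overlapped in wild type (3.62 to 4.42 CPM per kb for Idi1, 3.80 to 4.70 for Lss), whereas in ATXN1[82Q] the highest Idi1 library had 3.82 CPM per kb and the lowest Lss library 3.86.

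**Figure D1:**
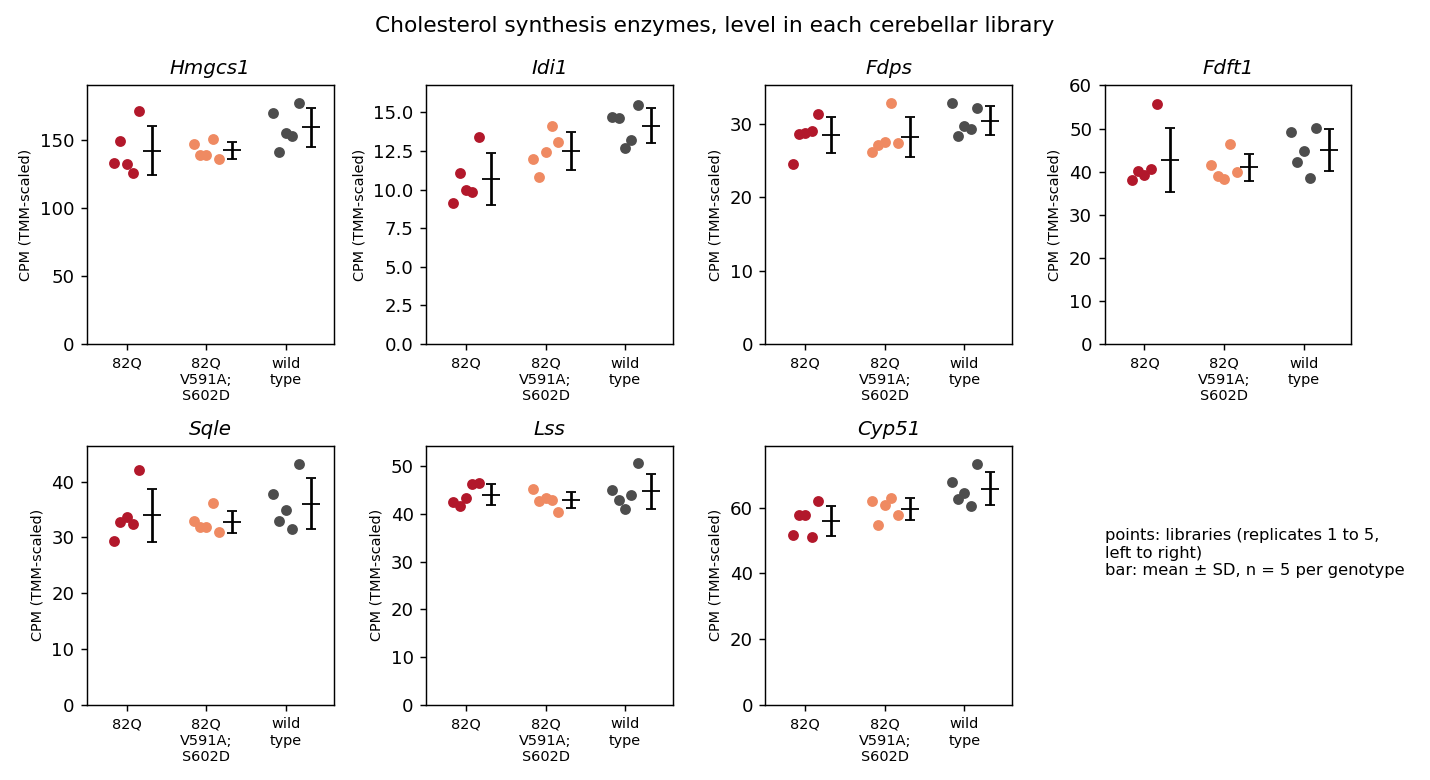
Level of each enzyme in every library (CPM, axes from 0; points are libraries, the bar is the mean ± SD, n = 5 per genotype). Idi1 and Cyp51 sat lowest in ATXN1[82Q], with 4 of the 5 libraries of each below every wild-type library, and for Fdft1 1 ATXN1[82Q] library at 55.7 CPM stood above the rest.

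The comparison of ATXN1[82Q] with wild type sets mice with the expanded transgene against mice with none. No genotype carried ATXN1 without the expansion, so the expansion and the transgene itself cannot be told apart. Idi1 fell 1.32-fold and Cyp51 fell 1.17-fold, and the other 5 enzymes did not pass the test. Means of all 7 were lower in ATXN1[82Q], with log2 fold changes from -0.40 to -0.02 and a median of -0.10, where the median of all genes tested was 0.01. Lss, which had the smallest difference, turned to 0.05 when libraries were scaled by their totals alone. In this comparison 31.5% of all genes tested were called (adjusted p under 0.05), 14.9% as lower and 16.6% as higher, so that a share of 2 enzymes among 7 stands near the background. Scaling by library totals changed the share of higher calls among all calls to 76.4%, against 52.8% with TMM. No member had library values that separated the genotypes fully, which 19.2% of all genes did. In bulk tissue, fewer cells of a type and less RNA per cell cannot be told apart.

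Hmgcs1 (chr13:119690379-119708260, plus strand, GRCm38) encodes cytosolic HMG-CoA synthase, which makes the precursor of mevalonate. It had 133, 149, 132, 126 and 171 CPM in ATXN1[82Q] replicates 1 to 5, 147, 139, 139, 151 and 136 CPM in ATXN1[82Q]V591A;S602D, and 169.9, 141, 155, 153 and 177 CPM in wild type. In ATXN1[82Q], 3 of 5 libraries lay below the lowest wild-type library and replicate 5 lay among the highest. The log2 fold change of ATXN1[82Q] over wild type was -0.16 (SE 0.0727, edgeR quasi-likelihood adjusted p = 0.102). Without ATXN1[82Q] replicate 5 it was -0.23 and passed (adjusted p = 0.00874). An antisense gene, Gm48342, overlaps Hmgcs1, and without strand their reads cannot be told apart.

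Idi1 (chr13:8885501-8892451, plus strand) encodes isopentenyl-diphosphate isomerase, which interconverts the isoprenoid building blocks. It stood at 9.14, 11.1, 9.94, 9.86 and 13.4 CPM in ATXN1[82Q], at 12, 10.8, 12.4, 14.1 and 13.1 CPM in ATXN1[82Q]V591A;S602D, and at 14.7, 14.6, 12.7, 13.2 and 15.5 CPM in wild type. Every ATXN1[82Q] library other than replicate 5 lay below the lowest wild-type library. Its mean was 10.7 ± 1.67 CPM in ATXN1[82Q] and 14.1 ± 1.16 CPM in wild type (SD, n = 5 each), a log2 fold change of -0.40 (SE 0.0966, 95% interval -0.60 to -0.20, edgeR adjusted p = 0.00456). Its raw counts were the lowest of the 7, 344 to 615 reads a library. Of its 50-base windows 25.3% also occur in transcripts of other genes, 17.7% in the processed pseudogene Gm13502, so its count is uncertain where the authors' counting could split such reads.

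Fdps (chr3:89093588-89101959, minus strand) encodes farnesyl diphosphate synthase, whose product feeds both sterols and protein prenylation. Its libraries read 24.5, 28.6, 28.8, 29.0 and 31.4 CPM in ATXN1[82Q], 26.2, 27.1, 27.5, 32.9 and 27.4 CPM in ATXN1[82Q]V591A;S602D, and 32.8, 28.3, 29.7, 29.3 and 32.2 CPM in wild type. The genotypes overlapped, with 1 ATXN1[82Q] library below the lowest wild-type one. The log2 fold change against wild type was -0.10 (SE 0.0701, edgeR adjusted p = 0.309). Its count is uncertain too, since 26.2% of its windows occur in other transcripts, most of them in the overlapping gene Gm43738.

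Fdft1 (chr14:63145150-63179578, minus strand) encodes squalene synthase, the first enzyme committed to sterols. It had 38.1, 40.1, 39.1, 40.5 and 55.7 CPM in ATXN1[82Q], 41.5, 39.0, 38.4, 46.3 and 39.8 CPM in ATXN1[82Q]V591A;S602D, and 49.1, 42.3, 44.9, 38.5 and 50.1 CPM in wild type. Replicate 5 of ATXN1[82Q] was the highest of all 15 libraries, while the other 4 of that genotype spanned only 38.1 to 40.5 CPM. The log2 fold change was -0.07 (SE 0.0965, edgeR adjusted p = 0.592). With any 1 library of either genotype left out it ran from -0.19 to -0.03 (edgeR adjusted p 0.0668 to 0.828). Exons of Ctsb overlap it on the opposite strand, and 26.5% of its windows occur in other transcripts, so its count is uncertain. Ctsb itself had a log2 fold change of 0.04 (edgeR adjusted p = 0.481).

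Sqle (chr15:59315077-59331192, plus strand), squalene epoxidase, is a rate-limiting step of the sterol part of the chain. Its values were 29.3, 32.7, 33.6, 32.3 and 42.0 CPM in ATXN1[82Q], 32.9, 31.9, 31.8, 36.2 and 31.0 CPM in ATXN1[82Q]V591A;S602D, and 37.8, 32.9, 34.9, 31.5 and 43.1 CPM in wild type. The ranges of ATXN1[82Q] and wild type nearly coincided, and the log2 fold change was -0.08 (SE 0.0908, edgeR adjusted p = 0.51). With any 1 library of either genotype left out it ran from -0.17 to -0.01 (edgeR adjusted p 0.125 to 0.924). Sqle shares almost no sequence with other transcripts (0.0358% of windows).

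Lss (chr10:76531588-76557138, plus strand), lanosterol synthase, closes the ring system. It had 42.4, 41.7, 43.4, 46.3 and 46.4 CPM in ATXN1[82Q], 45.2, 42.6, 43.4, 43.0 and 40.3 CPM in ATXN1[82Q]V591A;S602D, and 45.0, 43.0, 41.0, 44.0 and 50.7 CPM in wild type. No ATXN1[82Q] library lay below the wild-type range. Lss varied least of the 7 among ATXN1[82Q] libraries, with a coefficient of variation of 5.07% against 17.2% for Fdft1. Its log2 fold change was -0.02 (95% interval -0.14 to 0.09, edgeR adjusted p = 0.773).

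Cyp51 (chr5:4081145-4104746, minus strand), lanosterol demethylase, begins the trimming of lanosterol. It stood at 51.6, 57.8, 57.7, 51.1 and 61.9 CPM in ATXN1[82Q], at 62.1, 54.8, 60.9, 62.8 and 57.8 CPM in ATXN1[82Q]V591A;S602D, and at 67.9, 62.5, 64.5, 60.6 and 73.3 CPM in wild type. In ATXN1[82Q], 4 of 5 libraries lay below the lowest wild-type library. Its mean was 56.0 ± 4.59 CPM in ATXN1[82Q] and 65.7 ± 5.01 CPM in wild type (SD, n = 5 each), a log2 fold change of -0.23 (SE 0.0603, 95% interval -0.36 to -0.10, edgeR adjusted p = 0.00763). It missed the threshold in the libraries with Ttr under 100 CPM (log2 fold change -0.20, adjusted p = 0.0532) and with library totals as the scale (-0.16, adjusted p = 0.0593). Exons of Akap9 on the opposite strand hold 2.63% of its windows, and Akap9 was also lower in ATXN1[82Q] (log2 fold change -0.16, edgeR adjusted p = 0.0261). The part of its reads in Cyp51 was not tested.

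The rest of the chain was described from 12 further enzymes, all of which were tested. In ATXN1[82Q] against wild type 2 fell and 0 rose, and 8 of 12 had a negative log2 fold change (median -0.08). Of all genes tested 48.2% had a negative one. Ebp, the sterol isomerase, fell to 35.8 ± 1.96 CPM in ATXN1[82Q], against 40.9 ± 1.74 CPM in wild type (log2 fold change -0.19, edgeR adjusted p = 0.0032). Sc5d, the sterol desaturase, fell to 44.7 ± 3.21 CPM in ATXN1[82Q], against 50.5 ± 2.54 CPM in wild type (-0.18, adjusted p = 0.022), and the highest ATXN1[82Q] library and the lowest wild-type library were both at 47.6 CPM. Of 19 enzymes in all, 4 fell and 0 rose, where 14.9% of all genes tested were called lower and 16.6% higher. The call of Sc5d was lost without ATXN1[82Q] replicate 4 (adjusted p = 0.0595), wild-type replicate 3 (0.0526) or wild-type replicate 5 (0.0521), in the libraries with Ttr under 100 CPM (0.159) and with library totals (0.168). With the mean of 12 oligodendrocyte markers as a covariate Ebp (0.0546) and Sc5d (0.0687) both missed the threshold.

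**Figure D2:**
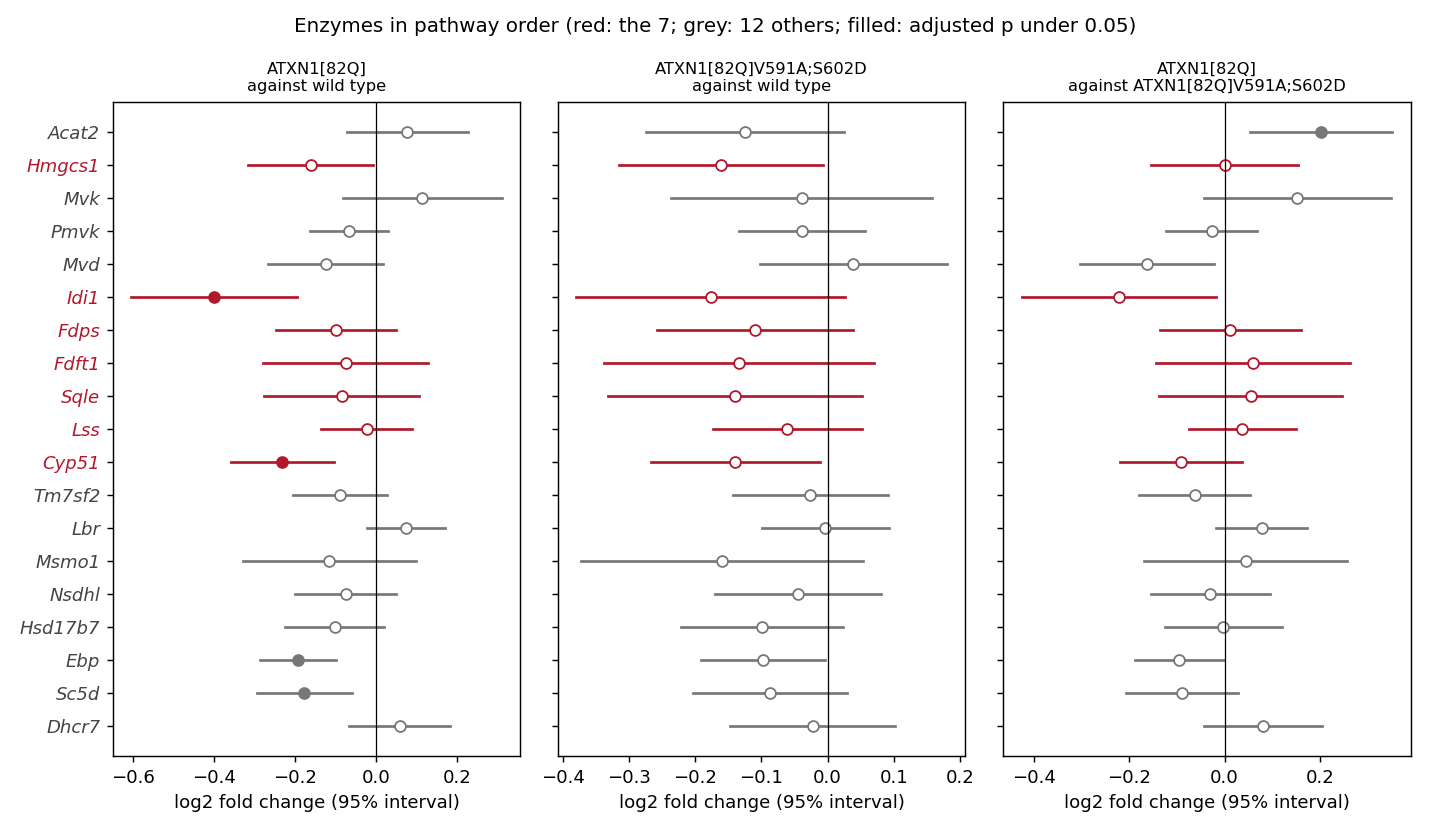
Log2 fold changes with 95% intervals (x axis, a scale of its own in each panel) of 19 pathway enzymes in pathway order for the 3 comparisons. Red marks the 7 enzymes, grey the 12 others, and filled points passed an adjusted p of 0.05. Idi1 (-0.40) and Cyp51 (-0.23) are the filled red points, in the left panel, and no point is filled in the middle panel.

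ATXN1[82Q]V591A;S602D cerebella, with the substitutions in the region that binds CIC, were compared with the same wild-type libraries. None of the 7 enzymes and none of the 12 others passed the edgeR test, nor did any with DESeq2. At an unadjusted p under 0.05 there were 2 lower and 0 higher among the 7, Cyp51 and Hmgcs1. Of all 15843 genes tested 995 were lower and 864 higher at that unadjusted threshold. Few genes were called at an adjusted p under 0.05 in this comparison, 1.41% in all, 1.2% lower and 0.208% higher. Log2 fold changes were -0.16 for Hmgcs1 (edgeR adjusted p = 0.399), -0.18 for Idi1 (0.509), -0.11 for Fdps (0.58), -0.13 for Fdft1 (0.634), -0.14 for Sqle (0.587), -0.06 for Lss (0.71) and -0.14 for Cyp51 (0.372). The median of the 7 was -0.14, against 0.01 for all genes tested. For Idi1 the 95% interval was -0.38 to 0.03, and for Cyp51 -0.27 to -0.01.

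Set side by side, wild type had the highest mean for all 7 enzymes, and both transgenic genotypes share those wild-type libraries, so their differences from it are not independent. Idi1 and Cyp51 were ordered ATXN1[82Q], then ATXN1[82Q]V591A;S602D, then wild type from low to high. In the middle of that order, ATXN1[82Q]V591A;S602D averaged 12.5 ± 1.23 CPM for Idi1 and 59.7 ± 3.33 CPM for Cyp51 (SD, n = 5 each), and for both enzymes the edgeR test passed between the outer genotypes and between no neighbours. Hmgcs1 had nearly equal means in both transgenic genotypes and averaged 142 ± 18.1 CPM in ATXN1[82Q], 142 ± 6.43 CPM in ATXN1[82Q]V591A;S602D and 159 ± 14.2 CPM in wild type. Fdps, Fdft1, Sqle and Lss had their lowest mean in ATXN1[82Q]V591A;S602D, and none of these 4 passed the test in any of the 3 comparisons.

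The direct comparison of ATXN1[82Q] with ATXN1[82Q]V591A;S602D sets the transgene without the substitutions against the transgene with them. Since transgene levels were not measured, a difference in them cannot be told apart from an effect of the substitutions. None of the 7 enzymes passed the edgeR test, and none with DESeq2, while 28.1% of all genes were called, 14.6% lower and 13.5% higher. At an unadjusted p under 0.05 only Idi1 was lower, with a log2 fold change of -0.22 (95% interval -0.43 to -0.02, edgeR adjusted p = 0.0952). Of all 15843 genes tested 3202 were lower and 3160 higher at that unadjusted threshold. Without ATXN1[82Q] replicate 5, Idi1 passed with -0.31 (adjusted p = 0.014). Cyp51 had -0.09 (95% interval -0.22 to 0.04, adjusted p = 0.273), and the log2 fold changes of Hmgcs1, Fdps, Fdft1, Sqle and Lss lay between 0.00 and 0.06. For Hmgcs1 the interval was -0.15 to 0.15. For these comparisons between the transgenes, library totals changed the share of higher calls among all calls to 71.9%, against 47.9% with TMM.

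Among the 12 further enzymes Acat2, which makes acetoacetyl-CoA at the start of the chain, rose to 23.9 ± 2.12 CPM in ATXN1[82Q], against 20.8 ± 1.07 CPM in ATXN1[82Q]V591A;S602D (SD, n = 5 each; log2 fold change 0.20, edgeR adjusted p = 0.041), and 0 fell. This call was lost without any 1 of ATXN1[82Q] replicates 1, 2 or 5 or ATXN1[82Q]V591A;S602D replicates 1, 2, 3 or 5 (adjusted p 0.0582 to 0.109).

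Between libraries of 1 genotype the 7 enzymes were high or low together. The log2 level of each was set against its own genotype's mean, and Pearson's r over the 15 libraries was computed for the 21 pairs. It ran from 0.365 for Idi1 with Lss to 0.931 for Sqle with Fdft1, with a median of 0.739. Without ATXN1[82Q] replicate 5 the range was 0.238 to 0.888 and the median 0.633. These are descriptions over libraries that share tissue, depth and protocol. Sqle followed the mean of the other 6 most closely (r = 0.964) and Lss least (0.532).

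Within each genotype 1 library led. Replicate 5 of ATXN1[82Q] was highest of its genotype in 7 of 7 enzymes, with a summed level of 422 CPM, where the other 4 had 328 to 361 CPM. Replicate 4 of ATXN1[82Q]V591A;S602D was highest in 6 of 7 (the other 4 summed to 345 to 367 CPM), and replicate 5 of wild type in 6 of 7 (442 CPM, the other 4 from 365 to 417 CPM). Replicate 1 of wild type was also above its genotype's mean in 7 of 7 enzymes, with 1090 CPM of Ttr. The 3 leading libraries held the most Ttr of their genotype, at 4870 CPM in ATXN1[82Q], 3540 CPM in ATXN1[82Q]V591A;S602D and 3790 CPM in wild type. The mean log2 level of 12 oligodendrocyte markers in them deviated from the genotype mean by 0.222 in ATXN1[82Q] (the others -0.094 to 0.019), by 0.099 in ATXN1[82Q]V591A;S602D (the others -0.086 to 0.005) and by 0.192 in wild type (the others -0.331 to 0.196). Other libraries did not all follow Ttr. Replicate 2 of ATXN1[82Q]V591A;S602D, with 1850 CPM of Ttr, was above its genotype's mean in 0 of 7 enzymes, and replicate 1, with 14.3 CPM, in 5 of 7. In ATXN1[82Q], replicates 2, 3 and 4, with 3250, 7.77 and 3240 CPM of Ttr, summed to 361, 345 and 335 CPM. The part of bordering tissue or myelin in the enzyme levels was not tested.

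**Figure D3:**
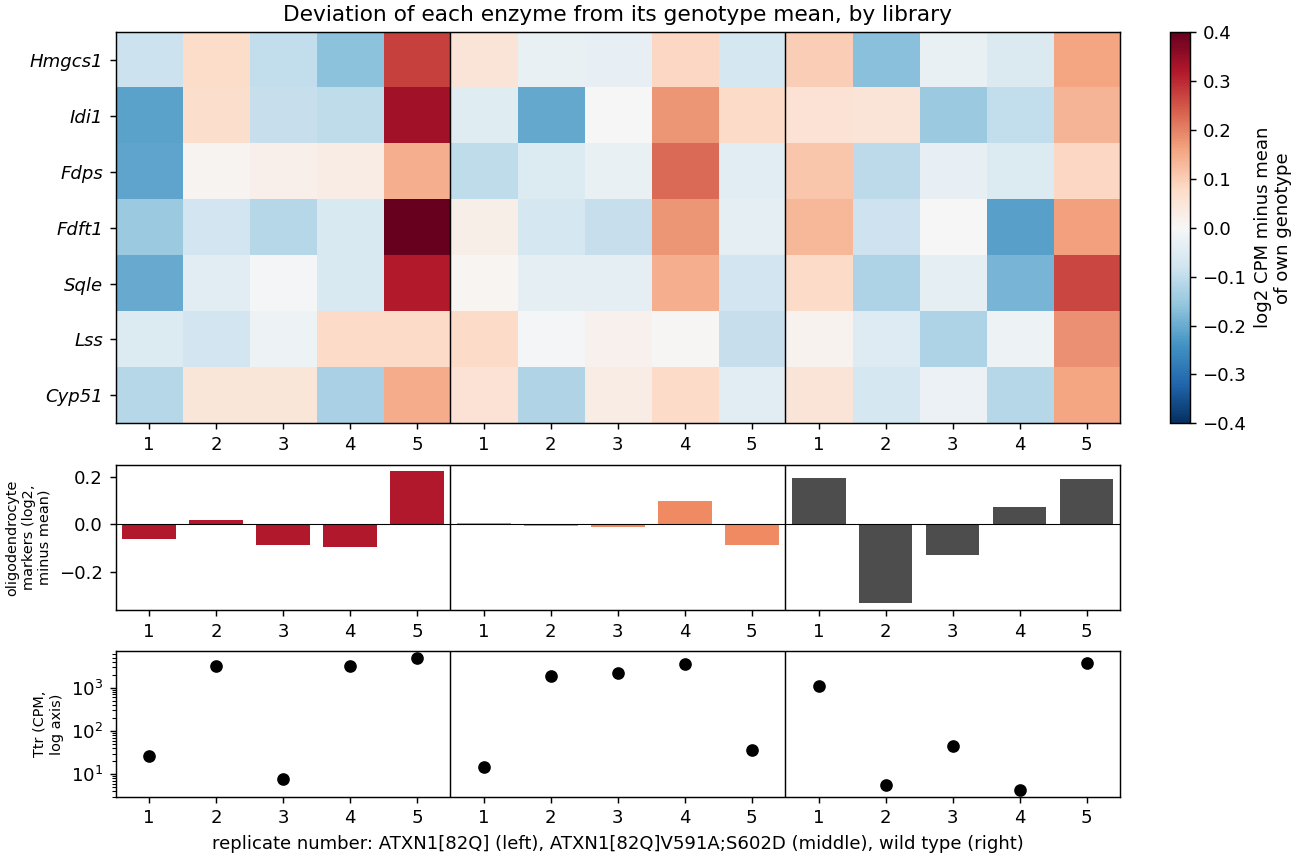
Deviation of each enzyme (log2 CPM minus the mean of its own genotype, colour scale) in the 15 libraries, above the same deviation of the mean of 12 oligodendrocyte markers and the Ttr level (CPM, log axis). The red columns are replicate 5 of ATXN1[82Q], replicate 4 of ATXN1[82Q]V591A;S602D, and replicates 5 and 1 of wild type, above their genotype's mean in 7 of 7 enzymes. In that order they had 4870, 3540, 3790 and 1090 CPM of Ttr, the most of their genotype except in wild-type replicate 1. Replicate 2 of ATXN1[82Q]V591A;S602D, with 1850 CPM of Ttr, is above its genotype's mean in 0 of 7.

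Other genes of sterol metabolism followed this library-to-library pattern to different degrees. Against the mean of the 7, with genotype means removed, Insig1, which holds the Srebf2 product in the endoplasmic reticulum when sterols are high, had r = 0.942 and the sterol demethylase Msmo1 0.934. Tm7sf2, a sterol reductase, had -0.337, the lowest of the 12 other pathway enzymes. Lower still was Elovl6, a fatty acid elongase among the SREBP targets, at -0.774. Over all genes tested r ran from -0.927 to 0.975, with a median of 0.004. Over the 15 libraries with genotype differences kept, the genes outside all lists most like the mean z-score of the 7 were Spryd3 (Pearson's r = 0.887), Cdc123 (0.881), Rab4b (0.863), Cops6 (0.86) and Nsg2 (0.857). Msmo1 (0.925) was more alike than any of these.

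Oligodendrocyte markers were also higher in ATXN1[82Q] as a genotype, 7 of 12 called against wild type (median log2 fold change 0.28), with summed levels of 7570 to 9530 CPM in ATXN1[82Q], 6200 to 6880 CPM in ATXN1[82Q]V591A;S602D and 5180 to 7630 CPM in wild type. With the mean log2 level of these markers as a covariate, the log2 fold changes of ATXN1[82Q] against wild type were -0.55 for Idi1 and -0.35 for Cyp51, both called, and Hmgcs1 (-0.37, edgeR adjusted p = 0.000157) and Sqle (-0.30, adjusted p = 0.0361) passed as well. Minus the wild-type mean, that covariate ran from 0.197 to 0.512 in ATXN1[82Q], -0.133 to 0.053 in ATXN1[82Q]V591A;S602D and -0.331 to 0.196 in wild type. ATXN1[82Q] overlapped neither other genotype. In every result given with this covariate, genotype and marker level therefore cannot be cleanly told apart. Of the Purkinje cell markers 11 of 12 were lower in ATXN1[82Q] (median -1.17), as were 8 of 10 granule cell markers (median -0.32). Of 11 astrocyte and Bergmann glia markers 5 rose and 3 fell. Among all genes tested 16.6% were called higher in ATXN1[82Q] against wild type and 14.9% lower. No marker in these 4 lists was at 0 in any library, and the part of Purkinje, granule or glial cells in the enzyme levels was not tested.

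Of 8 regulators of the chain 1 rose and 1 fell in ATXN1[82Q] against wild type, where 31.5% of all genes were called, 16.6% higher and 14.9% lower. Srebf2, which drives the cholesterol enzymes, had 115 ± 3.91 CPM in ATXN1[82Q] and 120 ± 7.18 CPM in wild type (SD, n = 5 each; log2 fold change -0.06, edgeR adjusted p = 0.332). Srebf1, whose product chiefly drives fatty acid synthesis, rose to 88.0 ± 7.76 CPM in ATXN1[82Q], against 59.2 ± 6.15 CPM in wild type (0.57, adjusted p = 1.04e-05). Insig2, which like Insig1 retains the precursor, fell by 0.10 on the log2 scale (adjusted p = 0.0263), and Insig1 had 0.01 (adjusted p = 0.944). The Insig2 call was lost without ATXN1[82Q] replicate 2 or 4 or wild-type replicate 1 or 3 (adjusted p 0.0523 to 0.0738). It was also lost with library totals (log2 fold change -0.02, adjusted p = 0.601), in the libraries with Ttr under 100 CPM (0.42), with only both genotypes compared (0.0571), without ATXN1[82Q] replicates 2 and 5 (0.077) and with the oligodendrocyte covariate (0.112). In ATXN1[82Q]V591A;S602D against wild type Srebf1 had 0.10 (adjusted p = 0.627) and Srebf2 0.02 (adjusted p = 0.923).

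Of 11 other known SREBP targets 4 rose and 2 fell in ATXN1[82Q] against wild type, where 16.6% of all genes tested rose and 14.9% fell. Stard4, a carrier of cholesterol between membranes, fell to 31.9 ± 1.58 CPM in ATXN1[82Q], against 39.5 ± 4.3 CPM in wild type (log2 fold change -0.31, edgeR adjusted p = 0.00856), and Elovl6, a fatty acid elongase, fell by 0.23 on the log2 scale (adjusted p = 0.00249). The fatty acid genes Fads1, Fads2 and Acsl3 rose by 0.15, 0.21 and 0.20 (adjusted p = 0.0073, 0.00288 and 0.00294). With the oligodendrocyte covariate none of these 5 genes passed (adjusted p 0.0815 to 0.252), and Stard4 also missed the threshold in the libraries with Ttr under 100 CPM (0.125). In ATXN1[82Q]V591A;S602D against wild type none of the 11 passed with edgeR or DESeq2, and 1 was lower at an unadjusted edgeR p under 0.05. Of all 15843 genes tested 995 were lower and 864 higher at that unadjusted threshold.

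The branch from farnesyl diphosphate into prenylation and dolichol was measured in 8 tested genes, of which 1 fell and 0 rose in ATXN1[82Q] against wild type. Among all genes tested 14.9% fell and 16.6% rose. Ggps1, which makes the geranylgeranyl donor, fell to 47.3 ± 1.69 CPM in ATXN1[82Q], against 53.8 ± 3.91 CPM in wild type (log2 fold change -0.18, edgeR adjusted p = 0.00653). That call was lost with library totals (0.061) and with the oligodendrocyte covariate (0.17). Against ATXN1[82Q]V591A;S602D (53.7 ± 1.64 CPM) 4 of the 8 fell in ATXN1[82Q]: Ggps1 (-0.18, adjusted p = 0.00877), Dhdds of dolichol synthesis (-0.14, 0.0292), and the prenyltransferase subunits Fntb (-0.11, 0.0407) and Pggt1b (-0.24, 0.0388). Between these transgenes 14.6% of all genes tested fell. With 1 library left out, 1 to 4 of the 8 stayed lower, and the calls of Dhdds, Fntb and Pggt1b were each lost without several libraries of either genotype (adjusted p up to 0.0991), whereas that of Ggps1 was not. With the oligodendrocyte covariate all 4 calls were lost: Ggps1 (adjusted p = 0.314), Dhdds (0.242), Fntb (0.141) and Pggt1b (0.692, log2 fold change -0.09). Dhdds, Fntb and Pggt1b were also lost in the libraries with Ttr under 100 CPM (adjusted p 0.11 to 0.163) and with library totals (0.0962 to 0.37).

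Genes that move cholesterol out of cells or store it, with other targets of the sterol sensor LXR, were measured in 15 genes, of which 8 rose and 1 fell in ATXN1[82Q] against wild type. Over all genes tested the shares were 16.6% higher and 14.9% lower. Apoe, the main lipoprotein of the brain, rose 1.60-fold (log2 fold change 0.68, edgeR adjusted p = 1.11e-07) and the exporter Abca1 1.38-fold (0.47, adjusted p = 5.38e-07). Lpl, lipoprotein lipase, rose to 3.67 ± 0.475 CPM in ATXN1[82Q], against 0.822 ± 0.19 CPM in wild type (2.15, adjusted p = 8.51e-08). Soat1, which esterifies cholesterol, had 0.37 (adjusted p = 0.000239), Mylip, a ubiquitin ligase, 0.34 (adjusted p = 0.000657), and Cyp46a1, by which neurons turn cholesterol over, 0.16 (adjusted p = 0.0273). The Cyp46a1 call was lost without ATXN1[82Q] replicate 4 or 5 or wild-type replicate 2, 3 or 4 (adjusted p 0.0512 to 0.0649), in the libraries with Ttr under 100 CPM (0.0832), without ATXN1[82Q] replicates 2 and 5 (0.104) and with the oligodendrocyte covariate (0.273). Microglia markers rose in 10 of 10 cases and summed to 211 to 244 CPM in ATXN1[82Q] and 111 to 126 CPM in wild type, and their part in these rises was not tested. In ATXN1[82Q]V591A;S602D against wild type none of the 15 passed with edgeR or DESeq2, and 2 were higher at an unadjusted edgeR p under 0.05. Of all 15843 genes tested 864 were higher and 995 lower at that unadjusted threshold.

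**Figure D4:**
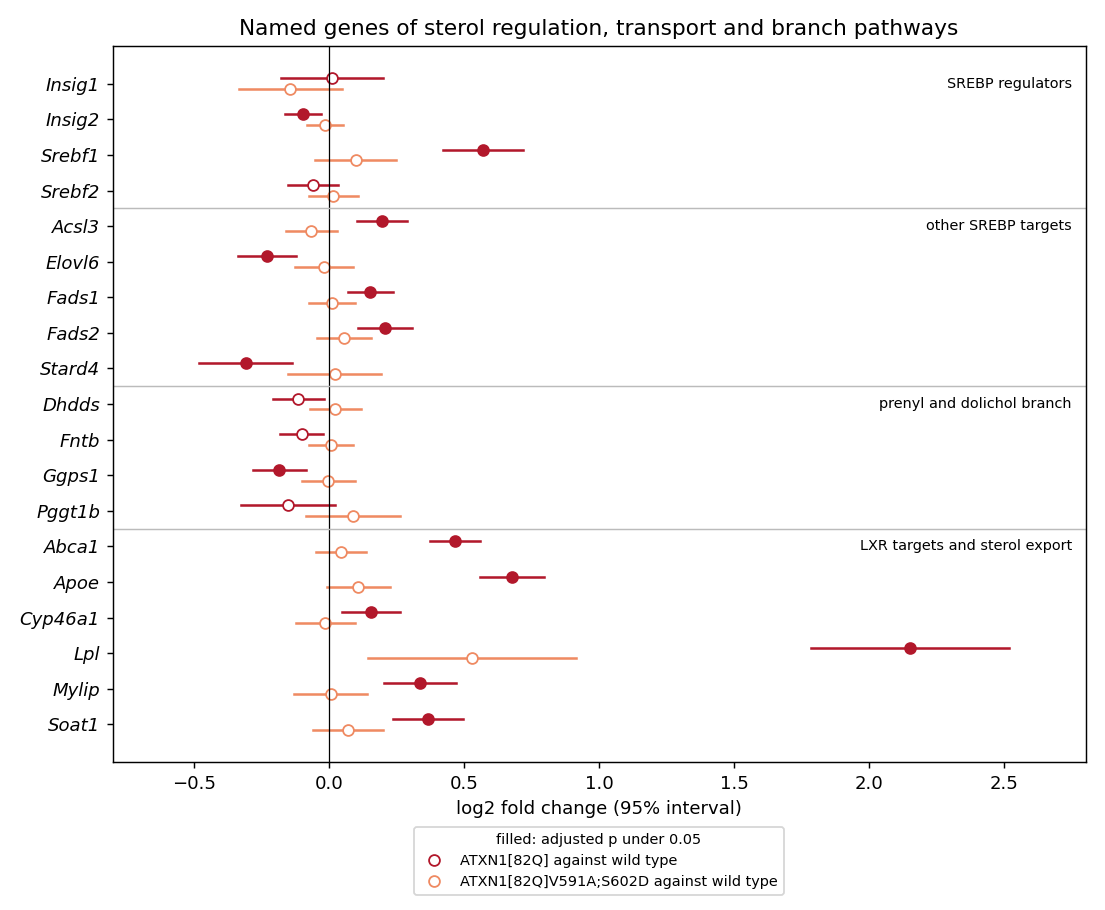
Log2 fold changes with 95% intervals (x axis) of named genes around the pathway, grouped as regulators, other SREBP targets, the prenyl and dolichol branch, and LXR targets with sterol export, for ATXN1[82Q] and for ATXN1[82Q]V591A;S602D against wild type. Filled points passed an adjusted p of 0.05; all filled points belong to ATXN1[82Q], from Stard4 at -0.31 to Lpl at 2.15.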

How the data were processed

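RNA was measured in cerebella of 3 genotypes, 5 libraries each. The deposited values are raw counts per gene. Per the submitters' processing notes the authors used STAR 2.5.3a, HTSeq and DESeq2 with mm10; for strand, counting mode and annotation the entry is "not given in the sources used here". Per the labels' protocols, cDNA was amplified from total RNA with poly(A) and random primers, so reads are not independent molecules. The counter's 5 summary lines were left out (no feature 16.8% to 18.2% of reads, ambiguous 1.18% to 1.25%, not unique 12.8% to 14.6%).

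Genes were tested with edgeR 4.0.16 (quasi-likelihood) in R 4.3.3, with all 15 libraries in 1 fit, TMM scaling, filterByExpr with a minimum count of 10 (15843 genes) and Benjamini-Hochberg adjustment per comparison at 0.05. CPM are TMM-scaled, and log2 CPM used a prior count of 2. Exon lengths and overlaps came from GENCODE M21 (GRCm38). Figures used matplotlib 3.10.9 in Python 3.11.15.

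The 7 enzymes and all lists were chosen with earlier results of these data known. Named were the 7 enzymes, up to 5 called enzymes of 12 others and up to 4 called genes of each further list per comparison by adjusted p, Srebf1, Srebf2, Insig1 and Cyp46a1 always, and the 5 genes outside the lists most like the 7. Some genes of the lists first drawn up are not reported here and enter no count of a list. Msmo1, Tm7sf2, Akap9, Ctsb, Ttr and Xist were named after their values were seen. Marker lists not described with the results gave, in ATXN1[82Q] against wild type, 4 of 6 oligodendrocyte precursor and 3 of 8 endothelial and mural markers higher, 0 of 7 choroid plexus markers called, and 1 of 5 tested brainstem markers higher. Among all genes tested 16.6% were called higher there and 14.9% lower.

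No pair of libraries of a genotype was a duplicate (chi-square per gene 5.7 to 40.6 over 30 pairs). Alternatives were RLE factors, DESeq2 1.42.0, no count filter, only the genotypes compared, a replicate block, each library left out, a covariate (Ttr, Xist or the oligodendrocyte marker mean), only the libraries under 100 CPM of Ttr, and leaving out ATXN1[82Q] replicates 2 and 5, the highest in brainstem markers. Scaling by library totals, and all alternatives for genes outside the pathway, were added after seeing the data.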

Additional observations from a re-analysis of the deposited data

Results flagged for a closer look

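In 6 of 114 combinations of a gene and a genotype, 1 of the 5 libraries lay far from the other 4, its gap to the nearest being over 0.71 of the whole range; chance flags about 1 in 20 groups (5%). Replicate 5 of ATXN1[82Q] was far above the rest for Fdft1 (55.7 CPM, the others 38.1 to 40.5 CPM), Msmo1 (58.2 CPM, the others 41.5 to 46.3 CPM) and Insig1 (62.4 CPM, the others 43.0 to 48.2 CPM). Replicate 4 of ATXN1[82Q]V591A;S602D was far above the rest for Fdps (32.9 CPM, the others 26.2 to 27.5 CPM) and Msmo1 (53.9 CPM, the others 41.9 to 45.0 CPM). Ebp was far above the rest in replicate 4 of ATXN1[82Q] (39.3 CPM, the others 34.6 to 35.2 CPM), and without that library it was called lower than in ATXN1[82Q]V591A;S602D (log2 fold change -0.13, edgeR adjusted p = 0.0316).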

How the results depend on the processing

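In ATXN1[82Q] against wild type Idi1 kept its call in all 21 alternatives (log2 fold change -0.55 to -0.33) and Cyp51 in 19 of 21. Of the 7 enzymes 2 were lower, 4 with the oligodendrocyte marker mean as a covariate, 1 with library totals, and 2 to 3 with a library left out. Of the 12 others 2 were lower, 1 with library totals (with 1 higher, Lbr), 1 with Ttr under 100 CPM only, 1 with the oligodendrocyte covariate (Msmo1, adjusted p = 0.0394, in place of Ebp and Sc5d), 3 without ATXN1[82Q] replicates 2 and 5 (Nsdhl added, adjusted p = 0.0456), and 1 to 2 with a library left out, 1 without ATXN1[82Q] replicate 4 or wild-type replicate 3 or 5. Hmgcs1 passed with Ttr as a covariate (-0.20), with Ttr under 100 CPM only (-0.18) and without ATXN1[82Q] replicates 2 and 5 (-0.29). In ATXN1[82Q]V591A;S602D against wild type 0 of the 19 enzymes passed in any of the 21 alternatives. In ATXN1[82Q] against ATXN1[82Q]V591A;S602D 0 of the 7 were lower, but 1 with Ttr under 100 CPM only (Idi1), 1 without ATXN1[82Q] replicates 2 and 5 (Idi1), 1 with the oligodendrocyte covariate (Hmgcs1), and 0 to 1 with a library left out. Of the 12 others 1 was higher, 0 with the replicate block, with Ttr under 100 CPM only, without ATXN1[82Q] replicates 2 and 5 or with the oligodendrocyte covariate, 2 with library totals, and 0 to 1 with a library left out; 0 to 1 were lower with a library left out. Acat2 reversed to -0.0269 with the oligodendrocyte covariate (adjusted p = 0.864). Around the pathway, Srebf1, Apoe, Abca1, Lpl, Soat1 and Mylip kept their call against wild type in all 21 alternatives, and with the oligodendrocyte covariate Ggps1, Stard4, Elovl6, Fads1, Fads2, Acsl3, Insig2 and Cyp46a1 did not pass (adjusted p 0.0815 to 0.273). Against ATXN1[82Q]V591A;S602D the 4 prenyl and dolichol genes called lower numbered 0 with that covariate. ATXN1[82Q] libraries did not overlap the other genotypes in the oligodendrocyte covariate, so genotype and marker level cannot be cleanly told apart with it. The cause of these shifts was not tested. The replicate block lost the calls of Acat2 (adjusted p = 0.0522) and Fntb (adjusted p = 0.0587) against the other transgene and changed no other call of the genes named. Between libraries that share a number r ran from -0.434 to 0.568, and was above 0.1 in 4 of 15 pairs (median -0.109). Most such libraries were not alike, so the numbers were not taken as pairs. Library totals moved the median of all genes to 0.0802 in ATXN1[82Q] against wild type and the share of calls that were higher to 76.4% (52.8% with TMM), and to 71.9% (47.9%) against the other transgene; DESeq2 moved that share to 25.2% (14.8%) in ATXN1[82Q]V591A;S602D against wild type, with 429 calls (223), and 136 to 307 calls with a library left out, fewest without ATXN1[82Q]V591A;S602D replicate 2 (136) or 4 (142) or wild-type replicate 2 (143). Calls over all genes were 4993, 4454 and 223 in the 3 comparisons in the order ATXN1[82Q] against wild type, ATXN1[82Q] against ATXN1[82Q]V591A;S602D, and ATXN1[82Q]V591A;S602D against wild type; they were 3234, 1512 and 149 with Ttr under 100 CPM only, and 2217, 888 and 280 with the oligodendrocyte covariate. Counts of 344 to 615 reads limit Idi1 more than the other enzymes.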
